A study of Mus musculus with 12 samples.

Results

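The macrophage genes described here were 10 genes used to follow macrophages in tissue, namely Adgre1, Csf1r, Lyz2, Cd68, Mrc1, Cd163, C1qa, C1qb, C1qc and Fcgr3. They were taken by gene symbol from the count table, and all 10 of 10 were present among its 14533 genes. Each of them had at least 24 counts in every library, so the defining markers were detected in all scrapings. The samples were epidermal scrapings from non-lesional dorsal skin of untreated C57BL/6 mice, with 1 mRNA sequencing library per mouse. All mice carried floxed alleles of Pparg, the gene of the lipid-sensing nuclear receptor PPARγ. The 6 WT mice were negative for Cre (Pparg flox/flox; K14-Cre-/-), and the 6 Pparg-/-epi mice carried 1 Cre transgene (Pparg flox/flox; K14-Cre+/-). The keratin 14 promoter drives Cre in basal keratinocytes, so Pparg was not targeted in macrophages themselves. The WT mice were 3 females and 3 males and the Pparg-/-epi mice 4 females and 2 males, and both groups were 8 to 13 weeks old. The frozen skin was scraped with a curette until the superficial dermal vessels were reached.

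Macrophages are phagocytes that take up dying cells, lipids and microbes, and in healthy skin most of them lie in the dermis around vessels and hair follicles. Their survival depends on the receptor Csf1r and on its ligands Csf1 and Il34. The epidermis itself holds Langerhans cells, which are maintained by Il34 and share Csf1r and Adgre1 with macrophages. Of the other genes, Lyz2 and Fcgr3 are also used by neutrophils, so not every gene of the set is specific to macrophages. In bulk tissue, fewer macrophages and less RNA of a gene per macrophage cannot be told apart.

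The gene models of the count table are on mm10. The 3 C1q genes, which encode the chains of the first complement component, lie side by side on the minus strand, C1qb at chr4:136880145-136886177, C1qc at chr4:136889802-136892914 and C1qa at chr4:136895916-136898844. Mrc1 lies at chr2:14229414-14332023, Cd163 at chr6:124304651-124330527, Lyz2 at chr10:117277541-117282272, Cd68 at chr11:69664213-69666170, Fcgr3 at chr1:171051169-171059403 and Adgre1 at chr17:57358686-57483529. No exon of the 10 genes overlapped an exon of another listed gene. Reads can still be shared with near copies, since 5.96% of the 75-base stretches of Lyz2 transcripts also occurred in Lyz1 and 5.42% of those of Fcgr3 in Fcgr2b, and the other 8 genes shared none.

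Promoters were searched on both strands because the levels of these genes moved together across the mice. PU.1, encoded by Spi1, is the transcription factor that myeloid genes have in common, and its core letters GAGGAA are shown in capitals, or as TTCCTC where they lie on the opposite strand. Each stretch is 30 bases from RefSeq promoters on GRCm38.p6 (the mm10 assembly), written 5′ to 3′ on the strand of the gene, with the first base of the match counted from the transcription start.
C1qb (chr4:136886213-136886242, minus strand, -30): gcagcaggatggGAGGAAcagaggggtgat
C1qc (chr4:136893090-136893119, minus strand, -193): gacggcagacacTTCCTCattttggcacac
Mrc1 (chr2:14229367-14229396, plus strand, -35): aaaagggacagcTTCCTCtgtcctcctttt
Fcgr3 (chr1:171059392-171059421, minus strand, -6): gagtccatttccTTCCTCtttttgtagttc
Cd68 (chr11:69666124-69666153, minus strand, 30): gaggcttttcatTTCCTCttccaagagaag

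Promoters were found for 7 of the 10 genes, and 5 of the 7 held GAGGAA within a window of 300 bases around the start, against 31.3% of 27025 genes with a promoter. Lyz2 and Cd163 held no match there. The longer form GAGGAAGT, which contains the shorter one, was found in C1qc alone, and in 3.69% of all genes. The direct repeat 1 element, to which PPARγ binds with its partner RXR, was found in none of the 7 and in 0.0481% of all genes. A match of letters is a description of the sequence and not a binding site.

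Total counts ran from 10120840 to 18851255 per library, so that 1 count was worth 0.052 to 0.107 CPM (the usual measure of expression per library size, here scaled by TMM factors). RNA integrity numbers (RIN) were 5.9 to 8.6 in WT against 5.7 to 8.6 in Pparg-/-epi mice. Pparg itself did not check the genotypes (log2 fold change -0.10, standard error 0.71, edgeR quasi-likelihood test, adjusted p = 0.949). Its counts cover the whole gene and not only the deleted exons, and they include RNA of cells in which Pparg was not targeted. The part of either was not tested. Of 8 keratinocyte markers, Krt14 (log2 fold change 0.98) and Ivl (1.00) were higher in Pparg-/-epi mice and 6 were not altered, among them Krt10 (-0.02). The median log2 fold change of the 8 was 0.33 and 5 of them were positive. Over all genes 10.3% were altered. The fibroblast gene Col1a1 ran from 423 to 13798 CPM in WT mice, and fibroblast RNA thus differed widely between scrapings. WT replicates 3 to 6 had names that start with 1 shared prefix, whose meaning the labels do not give and which no Pparg-/-epi mouse has. They were also older (12 and 13 weeks) and of lower RIN (5.9 to 7.1) than the other WT mice, replicates 1 and 2 (8 and 9 weeks, RIN 7.4 and 8.6). Among WT mice, name prefix, age and RIN therefore cannot be told apart. The macrophage genes split the WT mice along this line, so results are given with all WT mice and with each subset.

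With all 12 mice, none of the 10 macrophage genes was altered in Pparg-/-epi scrapings. The log2 fold changes, Pparg-/-epi minus WT, ran from -0.95 for Cd163 to 0.94 for C1qb with a median of 0.28, and 7 were positive and 3 negative. Over all 14533 genes the median was -0.01. Altered genes are those whose log2 fold change was 0.6 or more in size with a Benjamini-Hochberg adjusted p under 0.05 over all genes, by edgeR's quasi-likelihood test, and 10.3% of all genes met this. Adjusted p of the 10 genes ran from 0.24 to 0.874. At an unadjusted p under 0.05 the count was also 0 of 10, against 29.5% of all genes. The likelihood ratio test gave 0 altered and 0 at an unadjusted p under 0.05 (backgrounds 11.8% and 27.0%). DESeq2 gave 0 altered and 1, C1qb, at an unadjusted p under 0.05 (12.4% and 30.8%). The CPM of the groups overlapped for all 10 genes, and 7.9% of all genes had groups that did not overlap. These p-values do not show that the levels were alike, since the 95% interval of the log2 difference ran from -0.15 to 2.03 for C1qb and from -2.46 to 0.57 for Cd163.

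**Figure D1:**
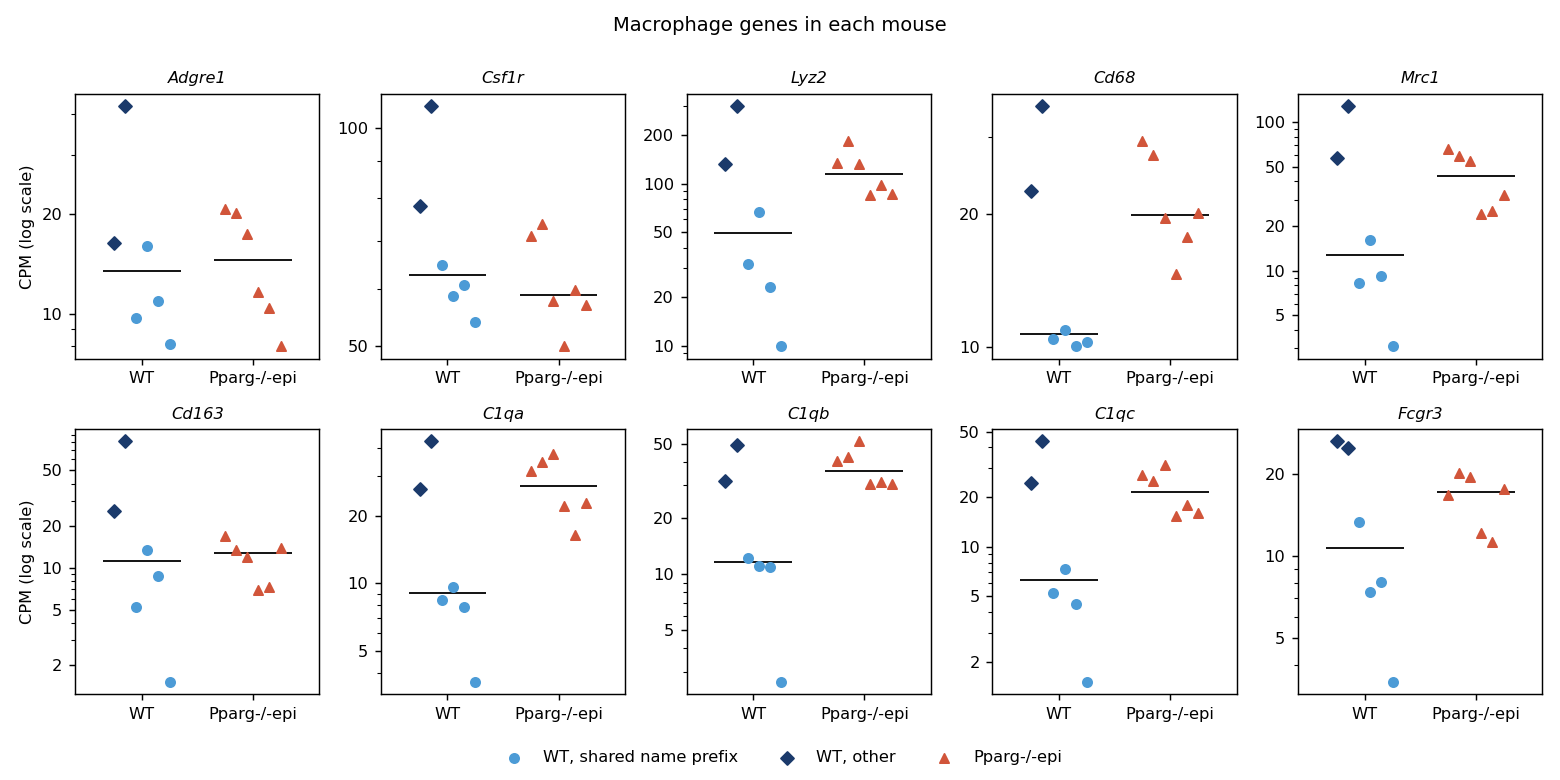
CPM of each macrophage gene (log axis) in the 6 WT and 6 Pparg-/-epi mice, 1 point per mouse, with a line at each group's median. Diamonds are WT replicates 1 and 2, circles the 4 WT mice that share a name prefix and triangles Pparg-/-epi mice, and in all 10 genes every circle lies below both diamonds.

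Ordered by level per length of the gene model, Lyz2 stood highest, with a median over the 12 mice of 86.9 CPM per kb. It was followed by C1qb (29.2), C1qa (20.8), C1qc (16.1), Csf1r (15.6), Cd68 (15.0) and Fcgr3 (11.1 CPM per kb). Mrc1 (5.42), Adgre1 (4.26) and Cd163 (2.82 CPM per kb) were lowest. All neighbours in this order overlapped over the mice, since Lyz2 for example ran from 9.35 to 284 and C1qb from 2.49 to 48.5 CPM per kb. These levels are a description, and no pair of genes was tested.

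The C1q genes were the complement genes of the set, and macrophages are a main source of C1q. C1qb was 2.64 CPM in the lowest WT mouse, 11.7 at the median and 49.4 in the highest, and 30.5, 35.8 and 51.5 CPM in Pparg-/-epi mice. The 4 WT mice of the shared prefix lay at 12.3 CPM or below and WT replicates 1 and 2 at 31.7 and 49.4 CPM, inside the Pparg-/-epi range. C1qb differed by 0.94 on the log2 scale (standard error 0.50, quasi-likelihood adjusted p = 0.24). C1qa had 3.65, 9.05 and 42.8 CPM in WT and 16.5, 27.2 and 37.5 CPM in Pparg-/-epi mice (lowest, median, highest; log2 fold change 0.74, standard error 0.50). C1qc had 1.51, 6.27 and 43.5 CPM in WT and 15.3, 21.5 and 31.4 CPM in Pparg-/-epi mice (log2 fold change 0.62, standard error 0.63). In all 3 chains WT replicate 2 was the highest WT mouse and WT replicate 6 the lowest mouse of all.

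Mrc1 and Cd163 are scavenger receptors, the mannose receptor and the receptor of hemoglobin-haptoglobin complexes, and are typical of resident dermal macrophages. Cd163 was 1.51 CPM in the lowest WT mouse, 11.1 at the median and 80.8 in the highest, and 6.90, 12.7 and 17.0 CPM in Pparg-/-epi mice. Its group medians were close, and WT replicates 1 and 2, at 25.6 and 80.8 CPM, stood above all Pparg-/-epi mice. Cd163 differed by -0.95 on the log2 scale (standard error 0.70, quasi-likelihood adjusted p = 0.408). Mrc1 had 3.08, 12.7 and 129 CPM in WT and 24.0, 43.5 and 66.0 CPM in Pparg-/-epi mice, so its WT values lay on both sides of the other group. Its log2 fold change was 0.23 (standard error 0.73).

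Lyz2, the lysozyme of myeloid cells, and Cd68, a glycoprotein of their lysosomes, showed the same arrangement. Lyz2 was 9.88, 49.2 and 300.4 CPM in WT and 84.8, 114 and 182 CPM in Pparg-/-epi mice (lowest, median, highest; log2 fold change 0.34, standard error 0.64). Cd68 was 10.0, 10.7 and 35.2 CPM in WT and 14.6, 19.9 and 29.3 CPM in Pparg-/-epi mice (log2 fold change 0.37, standard error 0.33). The 4 WT mice of the shared prefix held Cd68 within 10.0 to 11.0 CPM, below every Pparg-/-epi mouse.

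Among the surface receptors, Csf1r varied least, and Fcgr3, a low-affinity receptor of IgG, varied more. The gene of Csf1r lies at chr18:61105572-61131139 on mm10. Csf1r was 54.1, 62.8 and 107 CPM in WT and 49.99, 58.8 and 73.7 CPM in Pparg-/-epi mice (log2 fold change -0.20, standard error 0.16). Adgre1, which encodes the F4/80 antigen, was 8.12, 13.5 and 42.1 CPM in WT and 7.99, 14.5 and 20.7 CPM in Pparg-/-epi mice (log2 fold change -0.23, standard error 0.39). Fcgr3 was 3.46, 10.7 and 26.3 CPM in WT and 11.3, 17.2 and 20.2 CPM in Pparg-/-epi mice (log2 fold change 0.22, standard error 0.41). In all 3 the groups overlapped, and WT replicate 2 was the highest mouse for Csf1r and Adgre1 and WT replicate 1 for Fcgr3.

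The genes differed in how far they spread over the mice. The highest mouse exceeded the lowest 53.5-fold for Cd163, 41.8-fold for Mrc1, 30.4-fold for Lyz2, 28.8-fold for C1qc, 19.5-fold for C1qb and 11.7-fold for C1qa. The ratio was 7.61 for Fcgr3, 5.28 for Adgre1, 3.51 for Cd68 and 2.15 for Csf1r. Among genes that other immune cells share, named as examples, the ratio was 2.24 for Ptprc (CD45), 2.42 for Spi1 and 2.97 for Tyrobp, and the Langerhans genes ran from 2.00 for H2-DMa and 2.40 for Cd207 (langerin) to 6.82 for Ltc4s and 23.9 for Ccr7. The spread lay mostly in WT mice, where the SD of log2 CPM was larger than in Pparg-/-epi mice for 10 of 10 genes, which also held for 68.9% of all genes. It was 1.93 against 0.52 for Cd163 and 0.36 against 0.21 for Csf1r.

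Summed over the 10 genes, WT replicates 1 and 2 had 441 and 855 CPM and WT replicates 3 to 6 had 169, 218, 154 and 98.2 CPM. Pparg-/-epi replicates 7 to 9 had 453, 498 and 432 CPM and replicates 10 to 12 had 272, 295 and 305 CPM. All 6 Pparg-/-epi mice thus lay above the 4 WT mice of the shared prefix, and none lay above both other WT mice. Gene by gene, all 4 mice of the shared prefix lay below both other WT mice in 10 of 10 genes, an order found in 19.7% of all genes. They lay below every Pparg-/-epi mouse in 6 of 10 (Lyz2, Cd68, Mrc1, C1qa, C1qb and C1qc), against 11.6% of all genes. Both other WT mice lay above every Pparg-/-epi mouse in 3 of 10 (Csf1r, Cd163 and Fcgr3), against 10.9%. WT replicate 2 was the highest mouse in 8 of 10 genes (14.0% of all genes) and WT replicate 6 the lowest in 7 of 10 (9.54%).

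The sign of the genotype difference depended on which WT mice were used. Since every gene was lower in the 4 WT mice of the shared prefix, fold changes against these had to be the higher ones. The p-values of the subset comparisons do not allow for this split having been seen in the same values. Against the 4 WT mice of the shared prefix, a comparison added after the data were seen, all 10 log2 fold changes were positive with a median of 1.44, and 7 genes were altered, all higher, against 12.5% of all genes altered upward and 20.4% altered in either direction. They were C1qc (2.25, adjusted p = 0.00145), Mrc1 (2.24, 0.0036), C1qb (2.03, 0.00171), C1qa (1.89, 0.00107), Lyz2 (1.85, 0.00887), Cd68 (1.03, 0.00267) and Fcgr3 (1.01, 0.032), by the quasi-likelihood test. Cd163 (0.68), Adgre1 (0.38) and Csf1r (0.03) were not altered.

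Against WT replicates 1 and 2 alone, all 10 log2 fold changes were negative with a median of -0.62. Cd163 was altered, lower by a log2 fold change of -2.16 (standard error 0.40, quasi-likelihood adjusted p = 0.0257), against 1.53% of all genes altered downward and 2.68% in either direction. Of the others, Mrc1 (-1.08) and Adgre1 (-0.97) were the farthest from 0 and C1qb (-0.09) the nearest, and 6 of 10 genes had an unadjusted p under 0.05, against 18.7% of all genes. These 2 comparisons share the 6 Pparg-/-epi mice. The only name prefix found in both genotypes was that of WT replicate 2 and Pparg-/-epi replicate 10. All 10 genes were higher in WT replicate 2 of this pair, from 1.62-fold for C1qb to 11.7-fold for Cd163, as were 51.1% of all genes. With 1 mouse per genotype the pair has no replicate check. WT replicate 2 was also female, 9 weeks old and of RIN 8.6, and Pparg-/-epi replicate 10 male, 8 weeks old and of RIN 7.7. In this pair genotype, sex, age and RIN cannot be told apart. With the name prefix as a block, a fit added after the data were seen, the genotype difference comes from this pair and the spread from the other prefixes that hold more than 1 mouse. There all 10 log2 fold changes were negative, with a median of -1.39, and 1 of 10 genes was altered, against 1.64% of all genes, namely Csf1r (-1.10, standard error 0.22, quasi-likelihood adjusted p = 0.0473).

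**Figure D2:**
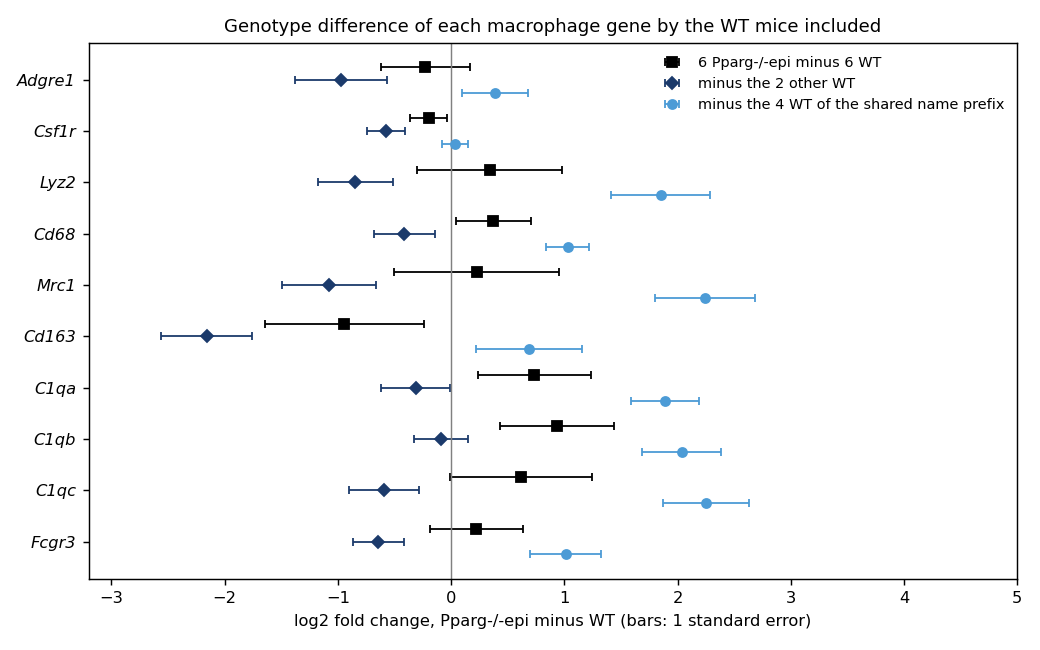
Log2 fold change of each macrophage gene, Pparg-/-epi minus WT, with bars of 1 standard error, against all 6 WT mice (squares), WT replicates 1 and 2 (diamonds) and the 4 WT mice of the shared name prefix (circles). All diamonds lie below 0 and all circles above 0, and the squares run from -0.95 for Cd163 to 0.94 for C1qb.

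A single mouse also moved the result. Without WT replicate 2, C1qb (log2 fold change 1.45, quasi-likelihood adjusted p = 0.032) and C1qa (1.29, 0.0408) were altered, against 15.5% of all genes. Leaving out any of the other 11 mice left 0 of 10 altered. Among female mice alone, 0 of 10 were altered (4.48% of all genes) and C1qb had a log2 fold change of 0.98. The genotype difference did not vary by sex in a detectable way, with interaction adjusted p from 0.939 to 0.997 in edgeR, and 0 of 14533 genes passed there (741 genes, or 5.1%, at an unadjusted p under 0.05, none of the 10 among them).

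Within the set the genes kept partly separate company. Over the 12 mice, the Pearson correlation of log2 CPM between Lyz2 and C1qc was 0.98 and between Lyz2 and Mrc1 0.98, while it was 0.44 between Csf1r and C1qb. The points share library, depth and amount of fibroblast RNA. The median correlation with the other 9 genes was highest for Mrc1 (0.93) and lowest for Csf1r (0.62). The ratio of 2 genes within a library does not depend on the scaling of the library. The log2 ratios given here include a prior count of 2, which pulls in ratios of low counts. In 5 of 45 pairs the log2 ratios of the groups did not overlap, against 8.63% of all pairs of listed genes. With this prior count, the ratio of Lyz2 to Cd163 was higher in every Pparg-/-epi mouse (log2 2.62 to 3.75) than in any WT mouse (1.39 to 2.60). On plain counts this pair overlapped. WT replicate 6 had 157 counts of Lyz2 and 24 of Cd163, a higher ratio than the 1003 and 162 of Pparg-/-epi replicate 12. Mrc1 to Cd163 was also higher (1.21 to 2.17 against 0.06 to 1.16). Cd163 to C1qc was lower (-1.38 to -0.20 against 0.00 to 0.94), as were Adgre1 to C1qb (-1.92 to -0.957 against -0.954 to 1.57) and Csf1r to C1qb (0.17 to 0.93 against 1.12 to 4.28). The share of such pairs was near the background, and 3 of the 5 held Cd163.

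The macrophage genes moved with fibroblast and endothelial genes across the mice. The correlation of their log2 CPM with the mean of 12 fibroblast genes ran from 0.68 for Csf1r to 0.95 for Mrc1, and with 12 endothelial genes from 0.48 for Csf1r to 0.91 for C1qa. With 8 mast cell genes, which also mark a dermal cell, it ran from -0.09 for Csf1r and 0.08 for Adgre1 to 0.75 for C1qb. With 12 Langerhans cell genes it ran from 0.14 to 0.54, and with Cd207 alone from -0.53 to -0.28. With RIN it ran from 0.53 to 0.80. Of the 10 genes of the table whose pattern over the 12 mice was most like the mean of the set, the first was the chemokine gene Ccl8 (r = 0.98), followed by Dcn, Abi3bp, Prelp, Reck, Cd248, Abca9, Serpinf1, Fyn and Rassf2 (r = 0.97 to 0.98). Dcn encodes the dermal proteoglycan decorin. None of the 10 was altered, against 10.3% of all genes, which largely follows from choosing them by likeness to genes that were not altered.

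**Figure D3:**
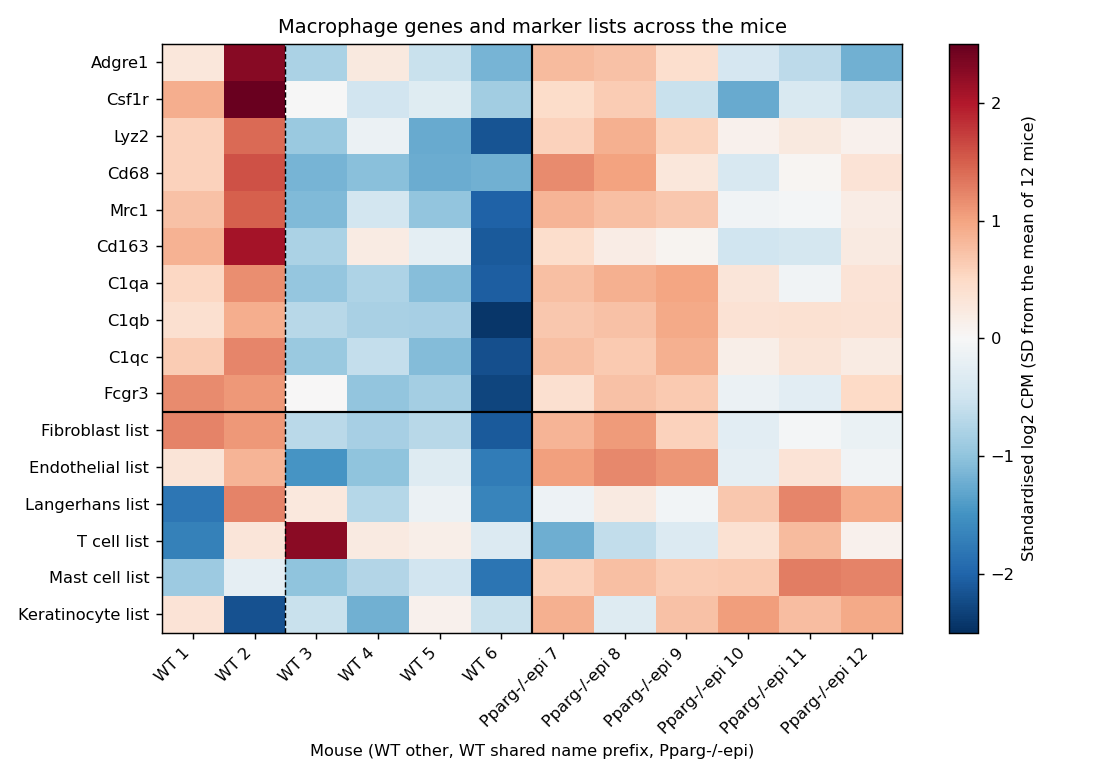
Log2 CPM of the 10 macrophage genes and the mean log2 CPM of 6 marker lists in each mouse, each row standardised over the 12 mice (red high, blue low). WT replicate 2 is high and WT replicate 6 low in the macrophage, fibroblast, endothelial and Langerhans rows. WT replicate 1 is low in the Langerhans and T cell rows.

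No fibroblast gene of 12 was altered, against 10.3% of all genes. The list's summed level ran from 1114 to 35537 CPM in WT against 5840 to 12307 CPM in Pparg-/-epi mice. Of 12 endothelial genes 1 was altered, Emcn (log2 fold change 1.79, adjusted p = 0.034), and the summed level ran from 15.3 to 215 CPM in WT against 71.2 to 317 CPM in Pparg-/-epi mice. Against the 4 WT mice of the shared prefix, all 12 endothelial and 7 of 12 fibroblast genes were altered and higher too, against 12.5% of all genes. With the fibroblast level as a covariate, 1 of 10 macrophage genes was altered, C1qb (log2 fold change 0.77, standard error 0.21, quasi-likelihood adjusted p = 0.0227), against 10.2% of all genes. Csf1r was lower there by an adjusted p of 0.0295 but with a log2 fold change of -0.35, short of 0.6. With RIN as a covariate 0 of 10 were altered, against 9.71% of all genes, and C1qb had 0.87. With age as a covariate 0 of 10 were altered, against 9.99% of all genes, but the median log2 fold change was 0.72, with C1qb at 1.30, Mrc1 at 1.11, Lyz2 at 0.88 and Cd163 at -0.30. The part of scraping depth in the spread of the macrophage genes was not tested in any other way.

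**Figure D4:**
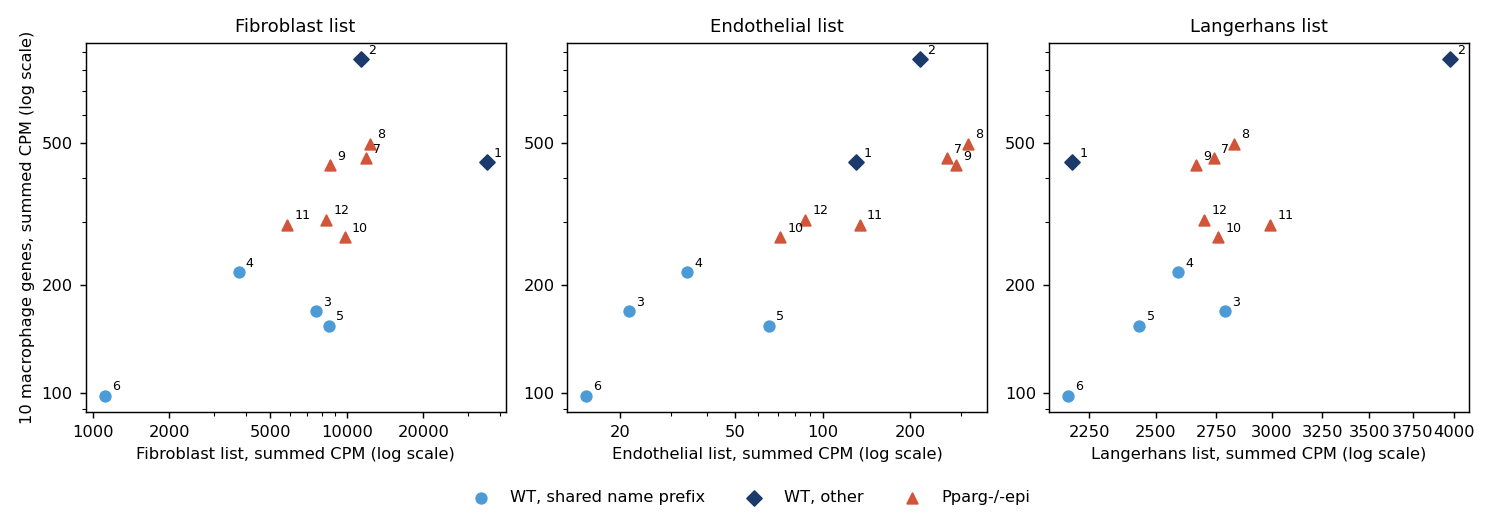
Summed CPM of the 10 macrophage genes against the summed CPM of the fibroblast, endothelial and Langerhans lists (log axes), 1 point per mouse, with the replicate number beside it. WT replicate 6 is lowest in all 3 lists, and WT replicate 1 has the most fibroblast RNA (35537 CPM) but not the most macrophage RNA (441 CPM).

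With all 12 mice, mast cell genes were higher in Pparg-/-epi mice, 8 of 8 (Kit 2.30, Ms4a2 1.90, Hdc 1.75, Cpa3 1.68, Tpsb2 1.46, Cma1 1.45 and Mcpt4 1.17 on the log2 scale, and Fcer1a, which had 0 or 1 count in every WT library and 17 to 44 in Pparg-/-epi libraries). Their summed level was 20.5 to 97.4 CPM in WT against 140.4 to 255 CPM in Pparg-/-epi mice. Of the 8, only Kit and Fcer1a were altered against WT replicates 1 and 2 alone, and the same pair among females alone, although all 8 log2 fold changes were positive in both. Of 12 Langerhans genes, Epcam (1.04), Mfge8 (0.92), Cd24a (0.63) and Ccr7 (2.07) were higher and Ltc4s (-1.54) lower, with Cd207 at 0.00 and Cd74 at -0.04. Of 10 listed T cell genes, Cd3e and Cd7 were lower (-0.75 each) and Gzmb higher (1.71). Of 3 listed neutrophil genes Cxcr2, which had 0 counts in 1 or more libraries, was higher (3.55) and Mmp9 lower (-0.999). Of these lists, 3 Langerhans, 0 T cell and 0 neutrophil genes were altered against WT replicates 1 and 2 alone. Among females 0 T cell genes were altered. Over all genes 10.3% were altered with all 12 mice, 2.68% against WT replicates 1 and 2 alone and 4.48% among females. Ly6g, Mpo, Ltf, Camp, Ngp, Retnlg, Mmp8 and Elane, which define neutrophils, were not among the listed genes.

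A wider list of 52 genes of macrophages, their receptors and growth factors was examined, of which 51 were in the table. Of these, 4 were higher, 1 lower and 46 not altered, a share near that of all genes (10.3%), and the median log2 fold change was 0.26. The lower gene was Il34, the Csf1r ligand made by keratinocytes. Il34 was 83.1 CPM in the lowest WT mouse, 126 at the median and 168 in the highest, and 49.6, 56.4 and 81.1 CPM in Pparg-/-epi mice. The groups did not overlap, and the log2 fold change was -1.03 (standard error 0.19, quasi-likelihood adjusted p = 0.00399). The other ligand, Csf1, was not altered, with 36.7 to 65.6 CPM in WT against 27.5 to 56.0 CPM in Pparg-/-epi mice (log2 fold change -0.07, standard error 0.19). Il34 was altered with each single mouse left out, but against WT replicates 1 and 2 alone it had a log2 fold change of -0.55 and was not. It was also not altered among female mice alone or with the name prefix as a block.

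Trem2, a receptor of lipids and dying cells that signals through Tyrobp, was the companion with the largest rise. It had 5, 9, 2, 4, 3 and 0 counts in WT replicates 1 to 6 and 27, 25, 18, 21, 12 and 8 in Pparg-/-epi replicates 7 to 12. On the CPM scale the groups did not overlap, and the log2 fold change was 2.25 (standard error 0.48, quasi-likelihood adjusted p = 0.00828). Its level was low, with a median of 1.25 CPM in Pparg-/-epi mice, and it was not altered against WT replicates 1 and 2 alone (1.64) or among females alone. Tyrobp, the signalling partner, had a log2 fold change of -0.01 and Fcer1g, that of the Fc receptors, -0.13, and neither was altered.

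Fcgr4, an activating IgG receptor related to Fcgr3, was higher (log2 fold change 2.16, adjusted p = 0.0376) with 0 to 14 counts per WT library and 6 to 63 per Pparg-/-epi library. The inhibitory receptor Fcgr2b had 0.48 and was not altered. Aif1, the calcium-binding protein IBA1, was higher (1.17, adjusted p = 0.0438) at 0.75 to 3.56 CPM in WT against 2.66 to 7.09 CPM in Pparg-/-epi mice. Csf2rb, the common chain of the receptors of GM-CSF, IL-3 and IL-5, was higher (1.04, adjusted p = 0.0318) at 8.69 to 31.6 CPM in WT against 19.05 to 39.9 CPM in Pparg-/-epi mice. The groups overlapped for all 3. Csf2rb is also used by mast cells, whose markers rose in the same mice, and shares 7.15% of its 75-base stretches with Csf2rb2, and the part of either was not tested. Fcgr4, Aif1 and Csf2rb were altered in 5, 2 and 4 of the 12 fits that left out 1 mouse, and none of them was altered against WT replicates 1 and 2 alone. In that comparison 3 other companions were altered, Cd209f (-2.63), Cd209a (-2.02) and Cd209d (-1.74), lectins of dermal macrophages and dendritic cells, all lower like Cd163 and named after their values were seen. Over all genes 2.68% were altered there. Lyz1, the near copy of Lyz2, had 1.07 to 25.4 CPM in WT against 7.39 to 14.1 CPM in Pparg-/-epi mice (log2 fold change 0.31, not altered).

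**Figure D5:**
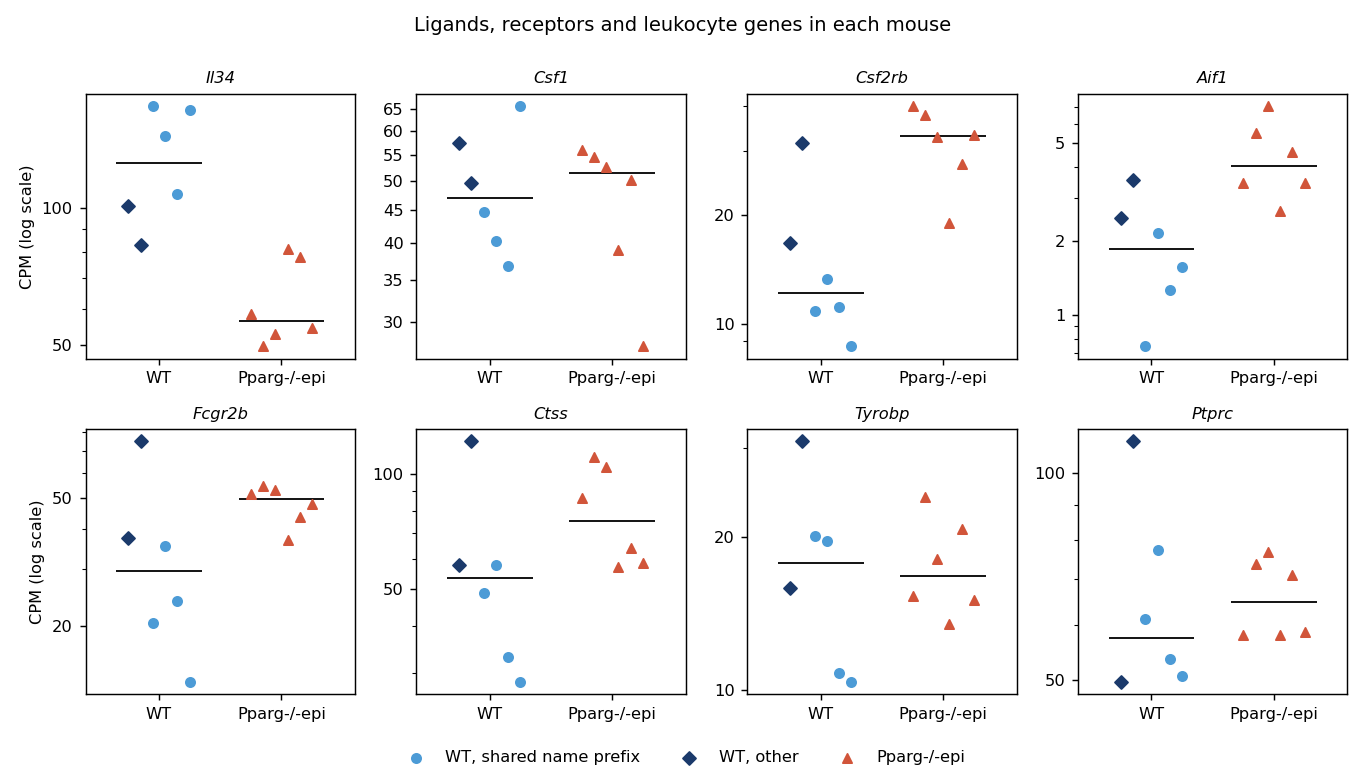
CPM (log axis) of the Csf1r ligands Il34 and Csf1, the receptor chain Csf2rb, Aif1, Fcgr2b, Ctss, Tyrobp and Ptprc, 1 point per mouse, with a line at each group's median and marks as in the plot of the macrophage genes. Among these 8 genes only Il34 has groups that do not overlap, with WT mice at 83.1 to 168 CPM and Pparg-/-epi mice at 49.6 to 81.1 CPM.

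Genes that mark states of macrophage activation were a further list of 26, of which 19 were in the table. Of these, 6 were higher, namely Ccl2 (log2 fold change 2.48), Cxcl9 (2.18), Cxcl10 (2.07), Ccl7 (1.501), Tnf (0.92) and Il4ra (0.66), and 2 were lower, Arg1 (-1.79) and Irf4 (-1.63). Over all genes 10.3% were altered. The chemokine, Tnf, Il4ra and Arg1 transcripts are also made by keratinocytes, and the cell of origin was not measured. Ccl2 was 0.40, 0.97 and 4.35 CPM in WT and 5.58, 7.82 and 12.5 CPM in Pparg-/-epi mice (lowest, median, highest), with no overlap. Irf4, a transcription factor used by dendritic cells and macrophages, was 14.0, 23.2 and 39.2 CPM in WT and 4.47, 7.65 and 11.0 CPM in Pparg-/-epi mice, also with no overlap (quasi-likelihood adjusted p = 0.00176). Of the 8, Irf4 alone was altered against WT replicates 1 and 2 as well (-1.54, quasi-likelihood adjusted p = 0.0246), against 2.68% of all genes. Among female mice alone, 0 genes of this list were altered upward and 2 downward, against 4.48% of all genes altered in either direction.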

How the data were processed

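Total RNA of 12 scrapings was sequenced as mRNA libraries. The authors aligned paired reads with STAR 2.5.2b to mm10 (refGene), discarded multi-mapped reads and those of low quality, counted the rest per gene with featureCounts (Subread 1.5.1) and deposited raw counts. All listed genes exceeded 0.5 CPM in 6 or more mice, no other filter was used, and 2800 blank rows were dropped. Strand use in counting is not given in the sources used here. The columns of Pparg-/-epi replicates 11 and 12 were matched to mice through the library list of the study's supplement, and all groups come from the labels.

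Counts were compared with edgeR 4.0.16 (R 4.3.3), TMM factors, genotype as the only term, the quasi-likelihood test and Benjamini-Hochberg adjustment over 14533 genes, and the script was tested on simulated data. The study's methods name the likelihood ratio test, which was run as an alternative with DESeq2 1.42.0, other scalings, covariates and mice left out. Correlations and log2 ratios of gene pairs used log2 CPM with a prior count of 2. The genes named were the 10 macrophage genes, altered genes of each marker list or its most abundant gene, ligands and relatives of the 10, the 10 most alike genes and Pparg. Not every such gene is named. The genes and lists were chosen with earlier results of these data known. Each library is 1 mouse, so p-values measure the spread between mice.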

Additional observations from a re-analysis of the deposited data

Results flagged for a closer look

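Each value here lay far from the other 5 of its group by Dixon's test at the 95% level. Chance alone meets this in about 1 in 20 groups of normally distributed values. The CPM tested were not put on a log scale and the groups of values reuse the same mice, so that rate need not hold here. Of 46 groups of values tested, 20 of them from the macrophage genes, 10 were of this kind.

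WT replicate 2 stood above the other WT mice for Adgre1 (42.1 CPM) and Cd163 (80.8 CPM), and for the summed levels of the wider macrophage list (4087 CPM), the activation list (766 CPM) and the Langerhans list (3975 CPM). The single listed blood gene, Alas2, was also highest there (2.71 CPM). Pparg-/-epi replicate 9 stood above its group for the activation list (565 CPM). WT replicate 1 had the most fibroblast RNA (35537 CPM). Skeletal muscle genes stood apart in WT replicate 5 (10475 CPM) and Pparg-/-epi replicate 8 (426 CPM). The 10 macrophage genes summed to 154 CPM in WT replicate 5 and 498 CPM in Pparg-/-epi replicate 8.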

How the results depend on the processing

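The count of 0 altered macrophage genes of 10 held with the likelihood ratio test, DESeq2, RLE factors, total counts, a mean CPM of at least 1, sex, RIN or age as a covariate, and female mice alone. It was 1 with the fibroblast level as a covariate, 1 against the 2 WT mice outside the shared prefix, 7 against the 4 that share it (added after the data were seen) and 0 to 2 with 1 mouse left out, the 2 being without WT replicate 2. Of 250 log2 fold changes of single genes under alternatives, 20 changed sign. Against the 2 WT mice these were Lyz2 (-0.85), Cd68 (-0.41), Mrc1 (-1.08), C1qa (-0.31), C1qb (-0.0866), C1qc (-0.60) and Fcgr3 (-0.64), and against the 4 they were Adgre1 (0.38), Csf1r (0.0321) and Cd163 (0.68). Without WT replicate 2, Adgre1 had 0.26 and Cd163 0.10, and without WT replicate 6, Mrc1 had -0.0175. With 1 mouse left out, Adgre1 ran from -0.37 to 0.26, Mrc1 from -0.0175 to 1.201 and Cd163 from -1.19 to 0.10. These alternatives use fewer WT mice, and a further cause was not tested.

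Of the wider macrophage list 5 genes were altered, but 3 with total counts, 3 with a mean CPM of at least 1, 3 with age as a covariate, 1 in females, 3 against the 2 WT mice, 23 against the 4, and 2 to 15 with 1 mouse left out (15 without WT replicate 2). Over all genes 1493 were altered, but 651 in females, 389 against the 2 WT mice, 2968 against the 4, and 1116 to 2249 with 1 mouse left out (2249 without WT replicate 2). The interaction with sex gave 0 macrophage genes in each of 3 fits. The lowest count of any of the 10 genes was 24, while Trem2 and Fcgr4 had under 10 counts in several libraries. The study describes the WT mice as sibling controls, but the labels used here do not say which mice of the 2 groups were siblings, so no pairing by litter was made. A block by name prefix, added after the data were seen, rests on the 1 prefix found in both genotypes, whose mice also differ in sex, age and RIN. It gave 1 altered macrophage gene (Csf1r), 0 of the wider list and 238 of all genes, and turned Lyz2 (-1.82), Cd68 (-1.27), Mrc1 (-2.43), C1qa (-0.95), C1qb (-0.69), C1qc (-1.51) and Fcgr3 (-1.04) negative.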
